A study of Mus musculus with 4 samples.

Results

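Krtap17-1 cells are the hair shaft cells of mouse skin that an in situ panel of 328 genes could pick out through a single hair shaft gene, Krtap17-1, which encodes a keratin-associated protein of the hardening hair fibre. They were chosen by their own transcripts: a cell of the skin slides with at least 10 panel transcripts was a member when at least 3 of them were Krtap17-1 and fewer than 3 were Shh. This gave 506 cells, or 0.139% of the 363982 skin cells that reached 10 transcripts, in a series of 515791 segmented cells. Krtap17-1 and Shh chose the cells, so their levels are given here as a description without a test.

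A growing hair is made in the bulb at the base of the follicle. Matrix cells, some of which express the signal Shh, divide around the dermal papilla and move upwards into concentric layers: the medulla, cortex and cuticle of the shaft, the inner root sheath, and the companion layer that carries Krt75. As shaft cells leave the matrix they stop dividing, fill with hair keratins that keratin-associated proteins crosslink, and stay bound to each other by desmosomes until they die and harden. The shaft is made only in anagen, the growth phase of the hair cycle, so telogen follicles at rest lack these cells.

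The mice carried TRE-Pitx1 and Krt5-rtTA, a Tet-On pair in which doxycycline switches on the transcription factor Pitx1 in cells with an active Krt5 promoter, that is, in keratinocytes of the basal layer and follicle. Littermates with the same transgenes received normal chow (Control; vehicle in the labels) or doxycycline chow (PITX1+), begun while the follicles were in telogen, and their ages were not given in the sources used here. The fixed, paraffin-embedded sections were measured by Xenium, which images single transcripts and assigns them to segmented cells, on a slide of unwounded male skin, a slide of unwounded female skin, a slide of male skin taken 4 days after wounding, and a slide of buccal mucosa. The labels give the content of each slide but not the condition of each section: sections were separated by their gaps and assigned from their order along the slide, Control first, which gave 4 Control and 6 PITX1+ sections. No label ties a section to an animal. One legend of the study counts unwounded PITX1+ skin in mice and Control only as skin, in numbers equal to the unwounded sections here. Another legend counts wounded skin in sections. The p-values therefore measure the spread between sections, which on the wounded slide may be technical. Sex and wounding each coincide with a slide and cannot be told apart from it.

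Pitx1 itself was the check of these assignments. Per 1000000 transcripts in cells with at least 3 Krt5 transcripts it stood at 31.2 in Control male against 1250 and 977 in PITX1+ male 1 and 2, and at 71.1 in Control wound against 751 and 375 in PITX1+ wound 1 and 2. In the female slide it was 49.3 and 49.6 in the sections assigned to Control and 36.5 and 101 in those assigned to PITX1+, so that PITX1+ female 1 lay below both Control sections and the female assignment is not borne out by the transgene. The sections held 474847 to 5581930 transcripts, and their kept cells had median totals of 26 to 87 transcripts. The members themselves held 7 Pitx1 transcripts, 1 each in 7 cells, 5 of them in PITX1+ male 1.

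Members were present in 6 of the 10 sections and made up less than 1% of the cells everywhere. PITX1+ male 1 held 182 members, 0.476% of its kept cells (95% exact binomial interval 0.409% to 0.550%), and PITX1+ male 2 held 88, 0.314% (0.252% to 0.387%). In PITX1+ female 1 there were 17, 0.0297% (0.0173% to 0.0476%), and in PITX1+ female 2 there were 76, 0.101% (0.0796% to 0.126%). Every unwounded section assigned to PITX1+ therefore held members, and the male sections held larger shares than the female ones. The wounded slide ran the other way: Control wound had 105 members or 0.575% (0.470% to 0.695%), an interval that overlaps that of PITX1+ male 1, PITX1+ wound 1 had 38 or 0.0995% (0.0704% to 0.137%), and PITX1+ wound 2 had none among 66959 cells, which allows a share of up to 0.00448% (3 counts of the total; upper end of the exact interval 0.00551%).

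The 3 unwounded Control sections had no member. Taken as 3 counts of the total, a count of 0 allows up to 0.0237% in Control male, 0.0173% in Control female 1 and 0.0255% in Control female 2, and the upper ends of the 95% exact intervals were 0.0291%, 0.0213% and 0.0313%. Their cells were shallower, with median totals of 26, 32 and 30 transcripts against 37 to 87 in the unwounded PITX1+ sections. The 3 sections held 16, 98 and 29 Krtap17-1 transcripts in all. Relative to all transcripts, Krtap17-1 was about as frequent in Control female 1 (98 of 749248) as in PITX1+ female 1 (442 of 3432078). In PITX1+ female 1, 20.6% of it lay in members, so that these sections differed in members but hardly in Krtap17-1 level. Control male and Control female 2 had less Krtap17-1 relative to all transcripts than every unwounded PITX1+ section. Cells were also thinned to 20 transcripts, with shallower cells left out. No kept cell of the unwounded Control sections held more than 2 Krtap17-1 transcripts, so thinning could only give 0 members there. This was among 8303, 13147 and 8478 cells, which allows up to 0.0361%, 0.0228% and 0.0354%. The 4 unwounded PITX1+ sections kept 35, 16, 5 and 30 members. Thinned in this way, PITX1+ male 1 had 0.104% and Control wound 0.101%, so that their order was not kept. Buccal mucosa, which grows no hair, had no cell with 3 Krtap17-1 transcripts among 62782 (up to 0.00478%) and 21 such transcripts in all, never more than 1 in a cell. All intervals and limits cover counting error only.

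Over the 3 slides, the share of members in PITX1+ minus Control sections averaged -0.0215 percentage points, with a two-sided p of 0.889 by the exact permutation test within slides (54 arrangements). The unwounded and wounded slides had opposite signs. On the unwounded slides alone the difference was 0.230 points (exact permutation p = 0.171, with conditions exchanged also between the male and female slides, 35 arrangements). Over all 3 slides, a threshold of 5 Krtap17-1 transcripts in place of 3 gave 0.00222 points (p = 0.963, exact), and cells thinned to the same number of transcripts gave 0.00812 points (p = 0.778, exact). Leaving out Control wound gave the same 0.230 points with p = 0.0556 by the exact test within slides, the smallest p that its 18 arrangements can give, so that this test could not pass 0.05. None of the others passed it.

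**Figure D1:**
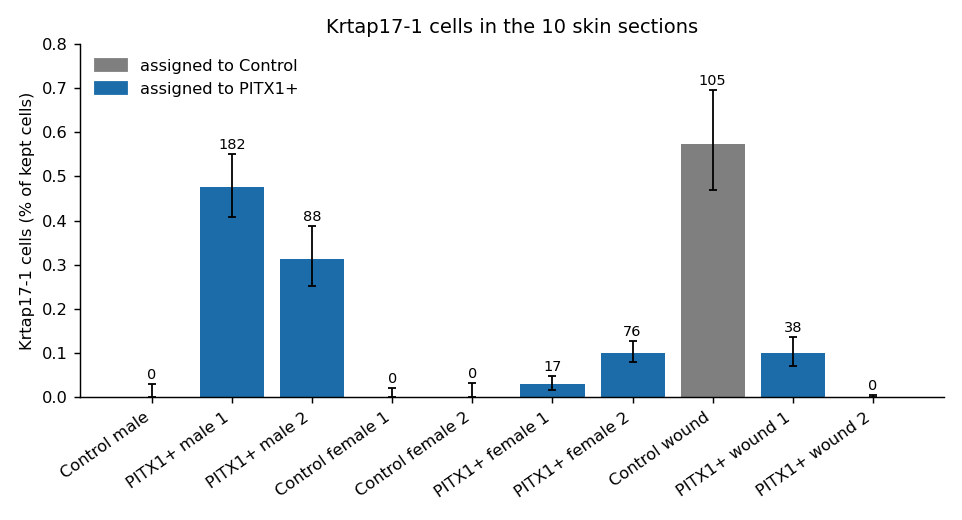
Krtap17-1 cells as a percentage of kept cells in each of the 10 skin sections; bars start at 0 and are section values, lines are 95% exact binomial intervals (counting error only), and the number above each is its count of members. The intervals of Control wound (0.575%) and PITX1+ male 1 (0.476%) overlap and lie above those of the female sections, and the 3 unwounded Control sections have no member.

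The members carried 3 to 58 Krtap17-1 transcripts, with a median of 5. There were 125 cells with exactly 3, 81 with 4, 188 with 5 to 9 and 112 with 10 or more, and 464 of the 506, or 91.7%, had no Shh transcript at all. Just outside the threshold lay 251 cells with 2 and 1798 with 1 Krtap17-1 transcript. In the 5 sections with at least 20 members, the 232 cells with 2 Krtap17-1 transcripts had 45.8 Lrrc15, 30.7 Dsg4 and 40.5 Dlx3 per 1000 transcripts, and the 117 cells with exactly 3 had 61.9, 38.3 and 52.4. The same genes stood at 19.0, 13.7 and 19.8 in cells with 1 Krtap17-1 transcript and at 89.6, 54.0 and 60.8 in the 110 with 10 or more. Between these the rise was not steady: they stood at 60.2, 44.9 and 55.6 at 4 transcripts and at 66.2, 39.6 and 51.6 at 5 to 9. These values pool the sections, which differ in their share of each class: PITX1+ female 2 gave 515 of the 1247 cells with 1 transcript. In PITX1+ wound 1 all 3 genes were lower at 3 than at 2 transcripts (47.6 and 47.7 for Lrrc15, 38.3 and 49.1 for Dsg4, 31.3 and 32.9 for Dlx3). These levels, like those below unless stated, are per 1000 panel transcripts of the same cells with Krtap17-1 and Shh left out, and a level is compared only between cells for the same gene, since probes differ between genes.

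The cells lay in clumps. Joined to neighbours within 50 µm, the members formed 83 groups, of which 40 had at least 5 cells and held 434 of the 506 members, and 26 members were alone. The largest group had 40 cells, in Control wound, and the largest in PITX1+ male 1 had 29. In PITX1+ female 1, by contrast, no group had more than 3. The distance to the nearest cell with at least 3 Shh transcripts had a median of 37.7 and 25.8 µm in PITX1+ male 1 and 2 and 48.8 µm in PITX1+ female 2, but 122 µm in Control wound and 213 µm in PITX1+ wound 1, where Shh cells were scarce (24 and 35 cells, against 566, 524 and 1130). The share of members within 50 µm of a Shh cell was 68.7%, 80.7%, 53.9%, 16.2% and 28.9% in the same order. Members of the wounded slide therefore lay farther from Shh cells than those of the unwounded sections, with no overlap between slides in these 5 sections.

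The label was set beside 6 genes of the hair shaft and inner layers. This list was chosen with earlier results of these data known, so it is no independent check of the label. Its genes were Dsg4, a desmosomal cadherin of the hair cortex, Lrrc15, a membrane protein with leucine-rich repeats, and Dlx3, a homeobox factor needed for hair formation. The others were Tgm3, a transglutaminase that crosslinks hair and inner root sheath proteins, Mt4, a metallothionein of stratified epithelia, and Barx2, a homeobox factor. For the 5 sections with at least 20 members, values are given below in the order PITX1+ male 1, PITX1+ male 2, PITX1+ female 2, PITX1+ wound 1 and Control wound. Lrrc15 stood at 79.0, 68.7, 62.2, 77.9 and 54.7 in members and at 4.20, 2.33, 1.57, 1.24 and 1.50 in all other cells. Dsg4 stood at 41.2, 46.2, 63.7, 53.0 and 34.9 in members and at 2.16, 0.88, 1.75, 0.44 and 0.62 in other cells. Dlx3 stood at 58.4, 58.7, 61.1, 41.9 and 44.4 in members and at 7.34, 6.18, 3.15, 1.52 and 3.44 in other cells. For all 3 genes the lowest section of members lay above the highest section of other cells.

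On the log2 scale, members exceeded all other cells by 5.69 ± 0.35 for Dsg4 (SE, 5 sections; edgeR adjusted p = 4.01e-10), 5.24 ± 0.27 for Lrrc15 (9.37e-13), 4.31 ± 0.29 for Mt4 (5.13e-11), 3.92 ± 0.29 for Dlx3 (1.00e-09) and 3.90 ± 0.38 for Tgm3 (8.43e-08). The list was therefore 5 higher and 1 lower of 6, with a median log2 difference of 4.12. Over all 320 genes tested, 45 were higher, or 14.1%, and 171 were lower, or 53.4%, with a median of -1.86. Barx2 went the other way: it stood at 1.93, 3.28, 0, 0.45 and 0.83 in members and at 8.11, 7.13, 1.00, 3.13 and 3.64 in other cells, a log2 difference of -1.95 (edgeR adjusted p = 0.00258). Of the 6 genes 5 went with the label, but the list joins shaft and inner layers and does not tell them apart. The cells were not placed in the cortex, cuticle or medulla of the shaft. The panel's keratins are Krt1, Krt4, Krt5, Krt6a, Krt7, Krt8, Krt15, Krt16, Krt17, Krt18, Krt23, Krt75, Krt77, Krt78 and Krt79.

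**Figure D2:**
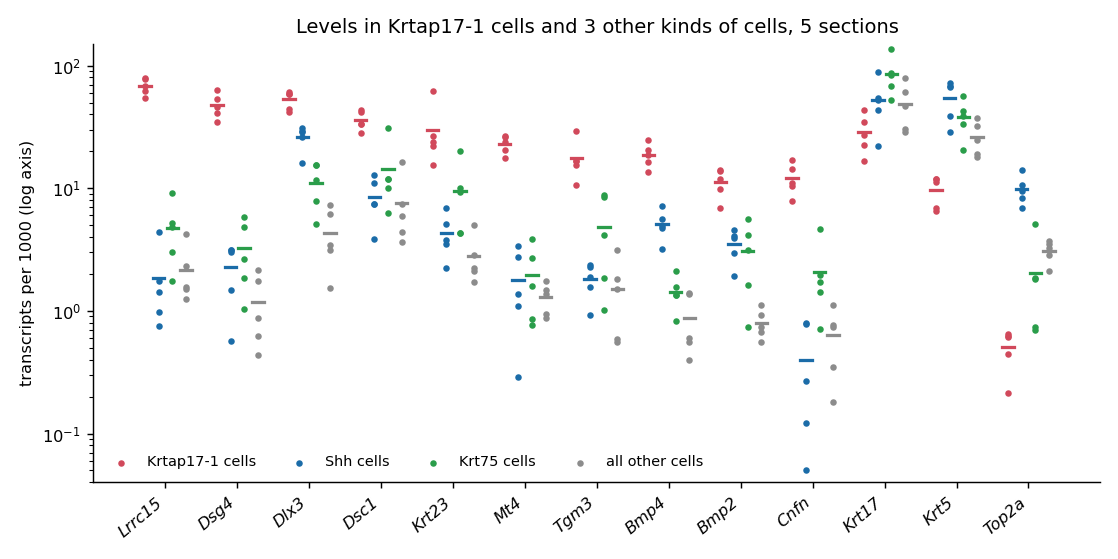
Levels of named genes per 1000 transcripts (log axis; values of 0 are drawn at 0.05) in Krtap17-1 cells, Shh cells, Krt75 cells and all other cells; each point is 1 of 5 sections and each dash the mean of the 5. Lrrc15 and Dsg4 lie highest in the Krtap17-1 cells in each section.

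Promoter windows of 3 genes at high level in the members are shown because the genes were high in the same cells; they run from 250 bases before to 50 bases after the RefSeq start, on build GRCm38.p6, and all lie on the minus strand. They belong to the marker Krtap17-1 (chr11:99993945-99994244), to Lrrc15 (chr16:30283205-30283504) and to Krt23 (chr11:99493071-99493370), a type I keratin on the same chromosome as Krtap17-1. Capitals mark a TATAAA.
Krtap17-1: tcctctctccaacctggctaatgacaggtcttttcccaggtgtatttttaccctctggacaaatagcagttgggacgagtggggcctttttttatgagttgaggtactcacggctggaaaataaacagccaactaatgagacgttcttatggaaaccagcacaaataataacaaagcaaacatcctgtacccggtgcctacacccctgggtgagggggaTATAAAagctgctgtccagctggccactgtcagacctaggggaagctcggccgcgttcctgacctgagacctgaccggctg
Lrrc15: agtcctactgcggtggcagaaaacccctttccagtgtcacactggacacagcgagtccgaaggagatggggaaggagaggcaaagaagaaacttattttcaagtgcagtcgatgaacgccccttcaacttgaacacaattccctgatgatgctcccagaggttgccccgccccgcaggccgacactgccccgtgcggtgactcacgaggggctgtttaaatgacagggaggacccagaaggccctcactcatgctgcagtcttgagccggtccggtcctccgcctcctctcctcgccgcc
Krt23: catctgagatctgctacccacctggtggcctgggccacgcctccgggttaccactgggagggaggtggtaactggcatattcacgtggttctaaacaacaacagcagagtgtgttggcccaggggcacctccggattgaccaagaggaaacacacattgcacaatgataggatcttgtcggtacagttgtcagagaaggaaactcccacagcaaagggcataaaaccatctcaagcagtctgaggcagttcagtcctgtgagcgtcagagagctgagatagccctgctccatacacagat
The Krtap17-1 window holds TATAAA from base -31 on the gene's strand, a run found on either strand in 4473 of 32851 promoter windows of this length (13.6%). Neither TAATCC, the core that Pitx factors bind (7.06% of windows), nor CTTTGA, a core of Lef and Tcf factors (16.0%), occurs on either strand in the 3 windows, which says only that these letters are not there.

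Outside that list, the largest differences upwards were those of Bmp4, Cnfn, Bmp2, Nectin2 and Krt23. The signal Bmp4 stood at 18.7, 16.4, 13.5, 24.7 and 20.5 in members against 0.39 to 1.41 in other cells, a log2 difference of 4.71 ± 0.39 (SE, 5 sections; edgeR adjusted p = 6.35e-09). Bmp2, a related signal of the matrix and precortex, stood at 9.79, 12.0, 6.96, 13.8 and 14.2 against 0.56 to 1.11, a difference of 3.95 ± 0.36 (7.83e-09). Cnfn, which encodes cornifelin of the cornified envelope, differed by 4.61 ± 0.44, Nectin2, an adhesion molecule of epithelial junctions, by 3.54 ± 0.30, and Krt23 by 3.50 ± 0.26. Krt23 stood at 21.9, 26.7, 61.8, 15.6 and 24.0 in members, with PITX1+ female 2 more than 2-fold above each other of these 5 sections. The few members of PITX1+ female 1, left out of the fits, also stood above the male and wounded sections, as given under Other observations.

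Beside the 14.1% higher and 53.4% lower over all genes, 5 of 8 BMP pathway genes were higher and 1 lower, with a median of 1.45. The receptors Bmpr1a (1.95) and Bmpr2 (0.98) and the signal Bmp7 (1.91) were also higher, the BMP and Wnt antagonist Sostdc1 was lower (-2.72), and the target genes Id1 (0.95, adjusted p = 0.19) and Id3 (0.00, adjusted p = 0.99) did not pass. Of 8 desmosomal cadherins, 5 were higher and 1 lower, with a median of 1.14, beside the same shares. Dsc1, a desmocollin of differentiated keratinocytes, stood at 33.3, 28.0, 43.5, 33.4 and 41.9 in members, a difference of 2.59, Dsc2 differed by 1.73, and Dsg3 of basal cells was lower by a log2 difference of -1.07. Dsg1a (1.24) and Dsg1b (1.04) passed as well, but these near-identical copies may share probes and are uncertain. Dsc3 (-0.53, adjusted p = 0.266) and Dsg2 (-0.75, adjusted p = 0.206) did not pass.

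Notch2, a receptor of differentiating layers, was higher in members by 2.03, while Notch1 (-0.33, adjusted p = 0.508) and the ligand Jag1 (-0.37, adjusted p = 0.513) did not pass. Of 8 ephrin genes, 3 were higher, the ligands Efna2 (2.63) and Efna3 (2.27) and the receptor Ephb3 (2.08), and the receptor Ephb4 was lower (-3.16). Of 12 Wnt genes, 1 was higher, the ligand Wnt5a (1.42), 2 were lower and 9 did not pass, beside 14.1% higher and 53.4% lower over all genes.

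The lists of other follicle and epidermal layers are read beside the 53.4% of all genes that were lower in members. Of 8 basal genes 6 were lower and none higher, among them Krt5, the keratin of basal cells whose promoter drives the transgene, which stood at 11.3, 12.0, 6.96, 11.8 and 6.46 in members against 37.7, 32.3, 18.1, 24.7 and 19.1 in other cells (log2 difference -1.31). Of 6 bulge genes 3 were lower and none higher, a share near that of all genes, and among them was Lgr5, a receptor of stem and progenitor cells (-2.64). Of 8 genes of the cornifying epidermis 4 were lower, again near that share, Krt1 by a log2 difference of -4.82, Krt77 by -4.60, Lor by -2.79 and Flg2 by -2.48, and Cnfn alone was higher. Of 10 cell cycle genes 8 were lower, among them Top2a (-2.60), which untangles replicated DNA.

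Of the matrix genes reported here, Bmp2 and the Shh receptor and target Ptch1 (1.40, edgeR adjusted p = 0.0036) were higher, and Lgr5 and the P-cadherin gene Cdh3 (-1.11) were lower. Lhx2 (-2.09, adjusted p = 0.0502) and Wnt10a (-0.81, adjusted p = 0.429) did not pass. Of 6 companion and outer root sheath genes, Krt75 was higher (2.62), Krt5 and Krt17 (-0.60, adjusted p = 0.013) were lower, and Krt6a (0.51, adjusted p = 0.185), Krt16 (1.59, adjusted p = 0.217) and Sox9 (-0.26, adjusted p = 0.646) did not pass. Pitx1 did not pass either (-1.66, edgeR adjusted p = 0.0917).

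Lists of other cell types were summed per 1000 transcripts in the 5 sections, and their counts of lower genes stand beside the 53.4% lower over all genes. Summed over 7 immune genes, members had 1.2 to 3.0 and other cells 19.0 to 53.7, with 6 of 7 lower. Over 5 fibroblast genes the sums were 1.8 to 4.8 against 42.7 to 72.9, with 5 of 5 lower, and over 4 endothelial genes 0 to 1.96 against 5.09 to 6.51, with 4 of 4 lower. Of 4 muscle genes 2 were lower (sums of 0.73 to 3.70 against 7.23 to 51.5), of 4 dermal papilla genes 2 (0 to 1.75 against 1.99 to 4.49), and of 5 neutrophil genes 4; the muscle and papilla counts are near the share of all genes. The neutrophil sums of members and other cells were 1.46 and 1.51 in PITX1+ male 1, 2.51 and 0.69 in PITX1+ male 2, 0.65 and 1.17 in PITX1+ female 2, 4.01 and 25.04 in PITX1+ wound 1 and 0.83 and 19.4 in Control wound. Sebaceous genes overlapped between the kinds of cell (12.6 to 16.5 in members, 10.2 to 22.4 in other cells, 1 of 4 lower), and the 1 melanocyte gene did not pass (0 to 0.23 against 0.12 to 0.51). Of the genes with the largest difference downwards, Vim, the intermediate filament of mesenchymal cells, had 33 transcripts in the members (log2 difference -5.49 ± 0.34), Des of muscle had 19 (-5.57) and the myeloid lysozyme Lyz2 had 13 (-5.82), and the protease Ctss had 4 (-6.30). Cd74 of antigen presentation had 1 transcript where 203 would match the other cells, a ratio of 0.00493 (95% Poisson interval 0.000125 to 0.0275). Mrc1 had 2 of 152 (0.0132, 0.00159 to 0.0475), C1qa 3 of 228 (0.0132, 0.00272 to 0.0385), Saa3 1 of 71.9 (0.0139, 0.000352 to 0.0775), Tnxb 3 of 252 (0.0119, 0.00245 to 0.0348) and Lum 3 of 161 (0.0186, 0.00384 to 0.0544). The Poisson intervals, here and below, take the expected count as known and do not cover the spread between sections.

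Compared with the Shh cells of the same sections, which are matrix cells chosen by Shh, the members had more of the shaft genes and far less of the division genes. Lrrc15 stood at 4.39, 0.98, 0.76, 1.76 and 1.43 in Shh cells, and Dsg4 at 3.17, 1.47, 3.00, 3.12 and 0.57, all below every section of members. The log2 differences were 5.53 ± 0.35 for Lrrc15 (SE, 5 sections; edgeR adjusted p = 5.75e-09) and 4.47 ± 0.31 for Dsg4 (7.20e-09). Dlx3, at 29.5, 30.8, 15.9, 26.4 and 29.0 in Shh cells, differed by 1.11 ± 0.24 (0.000655), so that it was already well represented there. Over 134 genes tested 37 were higher, or 27.6%, and 56 were lower, or 41.8%, with a median of -0.42. Of the 6 shaft and inner layer genes 5 were higher, and Barx2 did not pass (-0.85, adjusted p = 0.205).

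All 9 cell cycle genes tested were lower in members. Top2a stood at 0.21, 0.61, 0.65, 0.45 and 0.63 in members and at 6.85, 10.7, 9.56, 8.40 and 14.0 in Shh cells, a log2 difference of -4.31 ± 0.34 (SE, 5 sections; edgeR adjusted p = 2.42e-08). Uhrf1 (-4.79), which keeps DNA methylation through replication, Prc1 (-4.69) of the mitotic spindle, Cenpf (-4.45) of the kinetochore and Tyms (-4.37) of thymidine synthesis followed. For Top2a the highest section value of members lay below the lowest section value of Shh cells.

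The Shh receptor and target Ptch1 stood at 6.31, 6.63, 15.2, 4.45 and 5.11 in members, and its log2 difference from Shh cells was 0.03 (edgeR adjusted p = 0.911). Among the largest differences downwards were the growth factors Ptn (-5.31) and Pdgfa (-4.59) and the receptor Ephb4 (-4.16). Wnt6 had 3 transcripts in members where 98.1 would match the Shh cells, a ratio of 0.0306 (95% Poisson interval 0.00630 to 0.0893). Of 8 Wnt genes 4 were lower and none higher, beside 41.8% lower over all genes, and the lower ones included Wnt4 (-2.34), Wnt5a (-2.10) and the inhibitor Wif1 (-2.57).

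Notch1 was lower in members than in Shh cells (2.23, 4.57, 1.74, 3.56 and 3.34 against 9.90, 13.5, 13.3, 18.0 and 20.1; log2 difference -2.18, edgeR adjusted p = 1.38e-06). Jag1 was lower too (-1.49, adjusted p = 0.00108) and Notch2 higher (0.61, adjusted p = 0.0447). Among the desmosomal cadherins, Dsg4, Dsc1 (2.27) and Dsc2 (0.99) were higher, Dsg2 (-2.72), Dsc3 (-2.05) and Dsg3 (-1.64) were lower, and Dsg1a and Dsg1b did not pass. Bmp4 (1.95) and Bmp2 (1.77) were higher, Id3 (-1.78) and Sostdc1 (-2.11) lower, and 2 of 6 BMP genes did not pass.

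Among the other largest differences upwards from Shh cells, Cnfn differed by 5.01, the interleukin 1 receptor gene Il1r1 by 3.73, the protease inhibitors Serpinb2 by 3.74 and Slpi by 3.41, the cornified envelope precursor Sprr1a by 3.56 and the arginase Arg1 by 3.07. Il1r1 stood at 7.51, 7.24, 16.3, 6.01 and 6.57 in members against 0.57, 0.38, 1.04, 1.17 and 0.57 in Shh cells. Of the companion and outer root sheath genes Krt75 (2.08), Krt16 (2.79) and Krt6a (1.86) were higher, and Krt5 (-2.39) and Krt17 (-0.73) lower. Without PITX1+ male 1, which holds the most members, 37 of 118 genes tested were lower in place of 56 of 134. Of these 56, 7 were not tested there.

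Krt75 cells, taken as the companion layer because they held at least 3 Krt75 transcripts, were the other follicle population compared. Lrrc15 stood there at 9.08, 3.00, 5.25, 1.74 and 4.79 and Dsg4 at 5.83, 1.86, 4.79, 1.04 and 2.66, again below every section of members. The members were higher by 4.52 ± 0.36 for Lrrc15 (SE, 5 sections; edgeR adjusted p = 2.24e-05), 4.59 ± 0.40 for Dsg4 (2.29e-05), 4.28 for Mt4, 2.84 for Dlx3 and 2.69 for Tgm3, and lower for Barx2 (-1.97, adjusted p = 0.00383). Over 209 genes 41 were higher, or 19.6%, and 52 were lower, or 24.9%. Bmp4, at 0.83 to 2.10 in Krt75 cells, differed by 4.22 and Bmp2 by 2.63. Krt17 stood at 87.1, 68.6, 137, 83.4 and 52.9 in Krt75 cells and at 27.1, 22.6, 43.5, 34.7 and 16.8 in members, a difference of -1.08, with Krt5 (-1.47) and Sox9 (-1.38) also lower. All 6 bulge genes and 7 of 8 basal genes were lower. Of 8 desmosomal cadherins 2 were higher, 2 were lower and 4 did not pass, with a median of 0.35 beside -0.31 over all genes. Of 3 Notch genes 1 was higher and 2 did not pass. Scaling by library size in place of TMM moved the median of all genes by -0.56 and the split to 30 higher and 78 lower, that is from 44.1% to 27.8% higher, and the lower count fell to 21, 27 and 26 without PITX1+ male 1, PITX1+ male 2 and Control wound.

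On average over sections, Lrrc15 and Dsg4 were lower the farther a cell lay from the members. Averaged over 5 sections, and here per 1000 of all panel transcripts with Krtap17-1 and Shh included, Lrrc15 stood at 63.6 in members, at 31.6 in other cells whose centre lay within 15 µm of a member, at 11.4 from 15 to 30 µm, at 5.55 from 30 to 50 µm, at 3.34 from 50 to 100 µm and at 1.14 beyond. Dsg4 ran from 44.3 through 25.7, 12.5, 5.45 and 2.10 to 0.342. In Control wound the order was not kept throughout: Dsg4 stood at 2.27 from 15 to 30 µm and 2.68 from 30 to 50 µm, Lrrc15 at 3.13 from 30 to 50 µm and 3.50 from 50 to 100 µm, and Dlx3 at 12.0 from 15 to 30 µm and 15.9 from 30 to 50 µm. Krt5 was on average lowest in members, at 9.02, and highest from 30 to 50 µm, at 35.5. Col1a1 of the dermal matrix stood at 1.90 in members and at 41.4 beyond 100 µm. These averages give equal weight to each section. Cells were not assigned to follicles, so that neighbours may belong to the same follicle or lie outside it. Segmentation borders can share transcripts between touching cells, and their part in the gradient was not tested.

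Krt75 cells were more frequent close to the members than far from them. Within 15 µm they made up 40.1% of the other cells in Control wound, 19.8% and 19.5% in PITX1+ male 1 and 2, and 6.52% and 6.51% in PITX1+ female 2 and PITX1+ wound 1. From 15 to 30 µm the shares were 29.8% in Control wound, 21.7% and 19.9% in PITX1+ male 1 and 2, 10.8% in PITX1+ female 2 and 15.7% in PITX1+ wound 1, above those within 15 µm in every section but Control wound. Beyond 100 µm they were 0.76% to 2.87%. Shh transcripts peaked farther out, at 3.31 per 1000 from 30 to 50 µm on average.

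**Figure D3:**
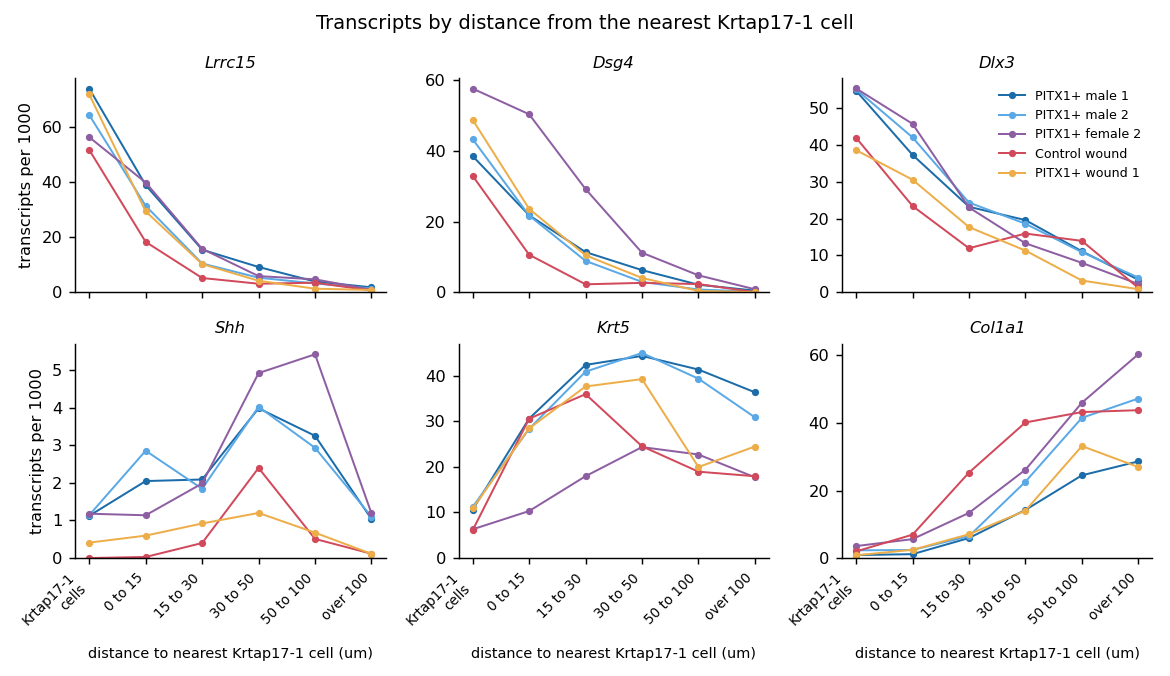
Level of 6 genes per 1000 panel transcripts, Krtap17-1 and Shh included, in Krtap17-1 cells and in other cells by distance (µm) to the nearest Krtap17-1 cell, with a line for each of 5 sections. Lrrc15 and Dsg4 are highest in the members in each section, and Krt5 is highest on average at 30 to 50 µm.

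Members near Shh cells were compared with members farther away than 50 µm in the 2 sections that held at least 20 of each, PITX1+ male 1 and PITX1+ female 2. Of 87 genes tested with edgeR, 0 were higher, or 0%, and 0 were lower, or 0%; at an unadjusted p under 0.05 there were 2 higher and 4 lower, and DESeq2 called 0 and 0 (0 and 2 at an unadjusted p under 0.05). Sprr1a (-1.39), Krt75 (-1.31) and Dsc2 (-1.21) were the lowest in p, all lower near Shh cells, with edgeR adjusted p of 0.117 to 0.163. The 2 sections limit the precision of this comparison.

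Members and Shh cells were also compared in form, although 5 sections cannot give an exact p below 0.0625. The share of transcripts lying over the nucleus was 40.8% ± 2.54 in members and 68.5% ± 3.52 in Shh cells (SD, n = 5), lower in members in 5 of 5 sections (exact sign-flip permutation p = 0.0625, adjusted over 4 measures 0.0833). The nucleus measured 26.8 ± 3.82 square µm against 34.9 ± 4.20, lower in 5 of 5 sections (exact p = 0.0625, adjusted 0.0833). The cell measured 86.3 ± 16.9 square µm against 55.4 ± 6.90, larger in 4 of 5 sections (exact p = 0.125, adjusted 0.125). In Control wound it measured 60.1 in members against 62.1 in Shh cells. Transcripts per cell without Krtap17-1 and Shh were 109 ± 34.3 against 130 ± 33.8, lower in 5 of 5 sections (exact p = 0.0625, adjusted 0.0833). All other cells averaged 43.6% over the nucleus, 24.6 square µm for the nucleus, 154 square µm for the cell and 84.2 transcripts. In share over the nucleus and nucleus area, members on average lay nearer to all other cells than to Shh cells. The differences from all other cells were not tested. Krtap17-1 itself lay over the nucleus for 32.4% to 41.0% of its transcripts in members, and Lrrc15 for 30.9% to 41.9%.

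Only Control wound offered Control members, so the conditions were compared by values without a test: a gene was set apart where Control wound lay at least 2-fold beyond each of the 4 PITX1+ sections. Of 108 genes with enough transcripts, 6 were higher in Control wound, or 5.56%, and 7 were lower, or 6.48%. The higher ones were Ivl, the envelope protein involucrin (9.28 in Control wound, 0.45 to 1.37 in the PITX1+ sections), Id3 of BMP response (13.9, against 0.87 to 5.18), the ligand Wnt5a (12.7, against 2.51 to 5.28), the protease Mmp14 (4.59, against 0.89 to 2.39), and the ephrins Efna2 (2.81, against 0.84 to 1.20) and Efna4 (1.88, against 0.22 to 1.09). The 2-fold rule used TMM-scaled values, and on the scale per 1000 Efna4 and Mmp14 fell short of it against PITX1+ female 2.

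The lower ones included keratins of activated keratinocytes. Krt16 stood at 29.0, 20.7, 11.7 and 53.0 in the PITX1+ sections and at 3.23 in Control wound, and Krt6a at 21.7, 10.7, 12.2 and 16.7 against 3.75. The antiprotease Slpi stood at 12.8, 15.9, 15.4 and 10.7 against 0.63. Control wound lay below all 4 PITX1+ sections for each. The prostaglandin dehydrogenase Hpgd (4.25 to 11.4, against 0.83), the retinoid genes Cyp26b1 (2.61 to 10.5, against 0.63) and Crabp2 (4.12 to 4.68, against 1.67), and Dsc2 (6.93 to 11.3, against 3.13) made up the rest. Within the wounded slide, PITX1+ wound 1 exceeded Control wound 17.1-fold for Slpi, 16.7-fold for Cyp26b1, 16.4-fold for Krt16, 13.6-fold for Hpgd, 4.45-fold for Krt6a, 2.80-fold for Crabp2 and 2.35-fold for Dsc2. These ratios set 1 section against 1 section without an interval. Those of Slpi, Cyp26b1 and Hpgd rest on low Control wound levels of 0.63, 0.63 and 0.83. For Cyp26b1, PITX1+ wound 1 was also the highest PITX1+ section, at 10.5. In all other cells of the same sections Krt16 stood at 12.8 in Control wound and 13.7 in PITX1+ wound 1, and Krt6a at 9.08 and 11.0. Without PITX1+ female 2, which lies on the slide whose assignment Pitx1 did not bear out, 14 genes were lower.

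**Figure D4:**
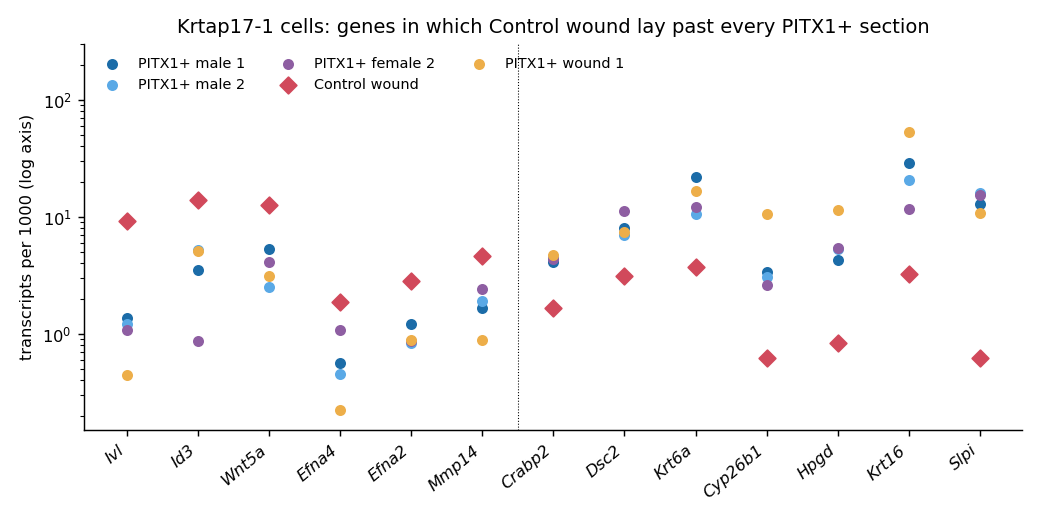
Levels per 1000 transcripts (log axis) in Krtap17-1 cells of the 13 genes for which Control wound lay at least 2-fold beyond all 4 PITX1+ sections on the TMM scale; each point is a section. Krt16, Krt6a and Slpi are lowest in Control wound, at 3.23, 3.75 and 0.63.

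Between slides, members of PITX1+ female 2 were set against those of the 2 PITX1+ male sections, in an edgeR fit over 4 sections. PITX1+ female 2 and PITX1+ wound 1 each stood alone on their side, so that their own spread was not measured: the fit left 1 residual degree of freedom, from the male pair, and its calls compare these sections and not the sexes or wounding. Of 130 genes 15 were higher, or 11.5%, and 15 lower, or 11.5%. Krt23 was higher by 1.68 ± 0.33 (SE), Lbh, a transcription cofactor, by 1.82, the arrestin gene Arrdc4 by 1.89, Ptch1 by 1.56 and Il1r1 by 1.46. Lbh stood at 19.1 in PITX1+ female 2 against 6.18 and 7.47, and in all other cells it stood at 9.74 against 5.74 and 5.18; Krt23 in other cells stood at 4.98 against 2.87 and 2.10. Ptch1 in other cells was likewise higher, at 8.56 against 5.45 and 4.11, while Arrdc4 stood there at 2.62 against 2.50 and 1.79 and Il1r1 at 2.90 against 2.82 and 2.02. The members of PITX1+ female 2 were shallower, with a median of 59 transcripts against 130 and 144; the part of depth was not tested.

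Lower in PITX1+ female 2 were Jun, an immediate early factor (-2.42), and the syndecan gene Sdc4 (-2.34), which stood at 1.09 each against 5.50 and 9.45 for Jun and 6.70 and 7.16 for Sdc4. They were lower in other cells too, at 1.84 against 6.86 and 6.17 for Jun and 0.94 against 6.13 and 5.00 for Sdc4. The chaperone Dnajb1 had 2 transcripts where about 20 would match the males, a ratio of 0.100 (95% Poisson interval 0.0121 to 0.362), and Hrnr 1 of 9.01 (0.111, 0.00281 to 0.618). These intervals cover only the counting error of PITX1+ female 2. Barx2 had 0 transcripts, at least 3.99-fold lower against a floor of 3 counts. In all other cells Barx2 was likewise lower in PITX1+ female 2 than in the male sections, by the levels given above. DESeq2 called 4 higher and 0 lower, a threshold of 5 Krtap17-1 transcripts left 0 and 0, and without PITX1+ wound 1 there were 6 and 9.

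In the same fit, with the same limit, PITX1+ wound 1 had 8 of 130 genes higher than the male sections, or 6.15%, and 0 lower, or 0% (9 at an unadjusted p under 0.05 in edgeR, and 0 by DESeq2). Krt15 of the bulge and basal layer was higher by 2.92, on 28 against 27 transcripts, Hrnr by 1.83, the retinoic acid hydroxylase gene Cyp26b1 by 1.79, Dsc3 by 1.78 and Sox9 by 1.75. Sox9 stood at 9.13 in PITX1+ wound 1 and at 3.44 and 2.21 in the males, and Dsc3 at 21.8 against 6.27 and 7.32. No gene was called by DESeq2, with a threshold of 5 Krtap17-1 transcripts, or without PITX1+ female 2.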

How the data were processed

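Xenium data of 3 skin slides and 1 buccal slide were used. The authors deposited cell tables with transcript counts per cell, and transcript tables with a quality score for each decoded transcript; the software version and segmentation settings are not given in the sources used here. Only transcripts at quality 20 or above were kept (98.1% to 99.1% of them in cells) and summed per cell, and these sums equalled the deposited counts in 100% of cells; cell boundary files were not used. Cells chained within 100 µm (200 µm on the wounded slide) formed sections of at least 2000 cells. The members and gene lists were chosen with earlier results of these data known.

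Counts were summed per section and kind of cell, in sections with at least 20 cells of both, without Krtap17-1 and Shh, and tested with edgeR 4.0.16 (filterByExpr, TMM, quasi-likelihood, section as block, Benjamini-Hochberg threshold 0.05) in R 4.3.3. Shares and sizes were tested by exact permutation over sections (scipy 1.17.1). The edgeR fits were tried on counts simulated with the same spread for every gene, which is no measure of the spread in these sections. Genes named with values are Pitx1, the members of the shaft, matrix, companion, cadherin and Notch lists, and the 10 largest changes in each direction with the same sign in every section (5 between slides); further genes of the fixed lists are named as examples, and a gene that this rule covers is not reported here. The other genes named, and the genes set apart by condition, were chosen after their values were seen. Alternatives were DESeq2 1.42.0, library size scaling, no filter, other thresholds, transcripts over the nucleus, thinned cells and each section left out. Slides shared 25 cell identifiers, and cells were keyed by slide. Promoters came from RefSeq, whose gene table held 327 of the 328 panel symbols.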

Additional observations from a re-analysis of the deposited data

Results flagged for a closer look

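Over the 4 PITX1+ sections with at least 20 members, 46 sets of values were examined for a section far from the other 3, and 9 had one. Chance gives about 1 in 20, but Arrdc4, Lbh, Il1r1 and Cyp26b1 were named because these sections differed from the males, so that this rate is no measure for them. PITX1+ female 2 stood apart with 6.74 Arrdc4, 16.3 Il1r1, 6.96 Krt5, 19.1 Lbh and 29.1 Tgm3 per 1000 transcripts in members. PITX1+ wound 1 stood apart with 10.5 Cyp26b1 and 41.9 Dlx3 per 1000. PITX1+ male 2 stood apart with 1.45 Cdh3 per 1000 and a mean cell area of 78.5 square µm.

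The difference between members and Shh cells ran one way in Control wound and the other way in all 4 PITX1+ sections for a pair of genes: it was 0.782 per 1000 transcripts for Arrdc4 and 0.339 for Dsg3 in Control wound and negative in the PITX1+ sections. These differences were not tested.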

How the results depend on the processing

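The difference in the share of members between conditions was -0.0215 points and changed sign with 5 Krtap17-1 transcripts (0.00222), with cells thinned to 20 transcripts (0.00812) and on the unwounded slides only (0.230); with each section left out it ran from -0.230 to 0.230, above 0 without PITX1+ male 2 (0.00547) and without Control wound (0.230). Against all other cells, 38 to 51 genes were higher and 122 to 165 lower with each section left out. Against Shh cells, 34 of 92 genes tested were lower by transcripts over the nucleus, where 20 of the 56 main calls were not tested. With each section left out 37 to 57 were lower, 37 of 118 tested without PITX1+ male 1. Against Krt75 cells, 21 to 56 were lower with each section left out: 21 without PITX1+ male 1, 27 without PITX1+ male 2 and 26 without Control wound. Near Shh cells, 1 gene, Sprr1a, was lower by transcripts over the nucleus, 1 (Rora) higher and 2 (Flg and Hrnr) lower at 25 µm, and 2 (Dsc2 and Krt6a) lower in sections with at least 10 cells of both kinds, a setting chosen after seeing the data. Between PITX1+ female 2 and the males, DESeq2 called 4 higher and 0 lower, transcripts over the nucleus gave 5 lower, 5 Krtap17-1 transcripts gave 0 and 0, and leaving out PITX1+ wound 1 gave 6 and 9. Between PITX1+ wound 1 and the males, 0 were higher by DESeq2, with 5 Krtap17-1 transcripts and without PITX1+ female 2, 5 without the filter on genes and 4 by transcripts over the nucleus, and 1 was lower by library size and 1 by transcripts over the nucleus. In Control wound, 7 to 14 genes were lower with each PITX1+ section left out, 14 without PITX1+ female 2. The cause was not tested in any of these. No gene of the naming rule that passed the threshold changed direction. Among those that did not pass in either setting, 31 differences changed sign in at least 1 alternative, with these log2 values. Against all other cells without the filter on genes, Jag1 stood at 0.10, Notch1 at 0.15 and Sox9 at 0.25. Sox9 lay from -0.35 to 0.010 with a section left out. Against Shh cells with library size, Ptch1 stood at -0.041. With DESeq2, Dsg1a stood at 0.054. Without the filter on genes, Dsg1a stood at 0.17. Over the nucleus, Dsg1a stood at 0.36. With 5 Krtap17-1 transcripts, Dsg1a stood at 0.11. Dsg1a lay from 0.19 to 0.49 with a section left out. Sox9 lay from -0.55 to 0.29 with a section left out. Against Krt75 cells with library size, Dsg1a stood at -0.14 and Dsg1b at -0.26. Without the filter on genes, Dsg1b stood at -0.0017. Jag1 lay from -0.47 to 0.21 with a section left out. Near against far with DESeq2, Dsg3 stood at -0.21 and Jag1 at -0.059. With 5 Krtap17-1 transcripts, Tgm3 stood at -0.11. At 25 µm, Dsc1 stood at 0.052, Dsc3 at 0.31, Dsg3 at -0.20, Ptch1 at -0.089 and Tgm3 at -0.23. In sections with at least 10 cells, Lrrc15 stood at 0.0047, Notch2 at 0.020, Ptch1 at -0.075 and Tgm3 at -0.0078. Between PITX1+ female 2 and the males with library size, Lrrc15 stood at -0.21. With DESeq2, Krt6a stood at 0.0066. Without the filter on genes, Lrrc15 stood at -0.23. With 5 Krtap17-1 transcripts, Krt6a stood at 0.24, Lrrc15 at -0.19, Mt4 at -0.12 and Sox9 at 0.23. Lrrc15 lay at -0.12 with a section left out. Between PITX1+ wound 1 and the males with library size, Dsc2 stood at -0.035 and Dsg1a at -0.014. Without the filter on genes, Dsc2 stood at -0.026 and Dsg1a at -0.0067. Over the nucleus, Bmp2 stood at -0.17, Dsc1 at -0.015, Dsc2 at -0.15, Dsg1b at 0.044, Krt17 at -0.059, Krt5 at -0.95, Krt6a at -0.052, Lrrc15 at -0.21 and Tgm3 at 0.20. With 5 Krtap17-1 transcripts, Dsg1a stood at -0.13, Krt5 at -0.44 and Tgm3 at 0.20.

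Library size in place of TMM shifted the median of all genes by -0.13 log2 against all other cells, -0.56 against Krt75 cells and -0.28 between PITX1+ female 2 and the males, where 11 were higher and 20 lower, that is 35.5% higher in place of 50%; between PITX1+ wound 1 and the males it gave 87.5% in place of 100%. The near comparison at 100 µm or with a section left out, the slide fits without a male section or without the lone section of the contrast itself, and DESeq2 or a left-out Control for the conditions could not be fitted. Kinds of cell were compared within sections; between conditions and slides no paired analysis was possible because the section numbers only follow position on the slide. Few members per section and 59 to 144 transcripts per member at the median limit genes of low level.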

Other observations

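PITX1+ female 1 held 17 members, too few for the fits. Their levels per 1000 transcripts were 73.9 for Lrrc15, 50.5 for Dsg4, 50.5 for Dsc1, 48.2 for Krt23 and 28.0 for Dlx3, and they lay a median of 96.8 µm from the nearest Shh cell. In the skin 6 cells held at least 3 transcripts of both Krtap17-1 and Shh and were no members.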
